A study of Mus musculus with 6 samples.

Results

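The comparison set the emigrant arrays numbered 1 against the emigrant arrays numbered 2 of a fetal thymus culture study. The 4 emigrant arrays of the 6 arrays in the series entered it, 2 of each number, with 1 dioxane and 1 TCDD array under each number. Arrays were assigned by the replicate numbers in the labels, and treatment was a covariate. All groups came from C57BL/6 mice: thymus lobes were taken at 15 days post coitum and cultured for 6 days, so that the cells are labelled with an age of 21 days post coitum. The medium was changed every 2 days and held 10 nM TCDD (2,3,7,8-tetrachlorodibenzo-p-dioxin, a ligand of the aryl hydrocarbon receptor, AHR) or the solvent dioxane, for which the emigrant labels state no concentration. Emigrants were cells recovered from 200 µl flushes of the lobes, and cells without CD4 and CD8 were then kept with magnetic beads. RNA came from pooled cells, was amplified, and was hybridised to 1 array per sample. The 2 thymocyte arrays of the series (1 dioxane, 1 TCDD), made from cells inside the lobes, are given here as values for reference. What the numbers stand for (a culture, an experiment or a day) is not given in the sources used here. No source says that the arrays came from separate cultures, so a p-value here reflects array-to-array spread alone, some of which may be technical.

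T-cell precursors enter the fetal thymus from the liver and pass through stages that carry neither CD4 nor CD8, in which they switch on Thy1, Gata3, Bcl11b and the CD3 chains and rearrange their receptor genes. The same fetal blood and liver also hold precursors of granulocytes, which fill granules with enzymes such as myeloperoxidase, and of red cells, which make heme, haemoglobin and a set of membrane proteins of their own. Granulocytes, macrophages and red cells carry little or no CD4 and CD8, so beads against these markers do not by themselves remove them. In RNA of bulk samples, fewer cells of a type and less RNA per cell cannot be told apart.

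Regions before the start sites of genes that read higher on the arrays numbered 1 are shown first, because the differences below fall on a few blood lineages whose gene control is well described. GATA1 is the main transcription factor of red-cell genes and binds sites with the letters AGATAA, and C/EBP factors of granulocytes bind sites of the form TTNNGCAA. The windows run from 250 bases before to 50 bases after the start site, in RefSeq coordinates of build GRCm38.p6, written 5′ to 3′ on the strand of the gene, and capitals mark the matches on either strand. Alas2 starts heme synthesis in the red-cell lineage (chrX:150547167-150547466, plus strand), Rhd is the mouse Rh blood group protein (chr4:134864286-134864585, plus strand), Kel is the Kell blood group protease (chr6:41704276-41704575, minus strand), and Ngp is a neutrophil granule protein (chr9:110419558-110419857, plus strand).
Alas2: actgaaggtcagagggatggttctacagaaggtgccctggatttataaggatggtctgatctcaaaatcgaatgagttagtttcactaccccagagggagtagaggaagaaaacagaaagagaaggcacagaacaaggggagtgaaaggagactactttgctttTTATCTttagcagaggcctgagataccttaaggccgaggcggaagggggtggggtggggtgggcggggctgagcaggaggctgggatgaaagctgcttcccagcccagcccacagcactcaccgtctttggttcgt
Rhd: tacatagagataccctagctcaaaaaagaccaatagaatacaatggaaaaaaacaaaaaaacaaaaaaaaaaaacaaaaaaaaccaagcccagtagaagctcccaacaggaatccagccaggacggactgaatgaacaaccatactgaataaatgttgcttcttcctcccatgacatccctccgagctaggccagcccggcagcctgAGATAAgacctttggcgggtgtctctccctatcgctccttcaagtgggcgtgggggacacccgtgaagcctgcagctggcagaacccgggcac
Kel: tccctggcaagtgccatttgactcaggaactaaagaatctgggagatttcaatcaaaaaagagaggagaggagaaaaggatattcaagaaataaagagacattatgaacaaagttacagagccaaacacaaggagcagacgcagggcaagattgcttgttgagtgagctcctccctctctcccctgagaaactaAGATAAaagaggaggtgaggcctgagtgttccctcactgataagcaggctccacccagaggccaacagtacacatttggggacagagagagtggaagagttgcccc
Ngp: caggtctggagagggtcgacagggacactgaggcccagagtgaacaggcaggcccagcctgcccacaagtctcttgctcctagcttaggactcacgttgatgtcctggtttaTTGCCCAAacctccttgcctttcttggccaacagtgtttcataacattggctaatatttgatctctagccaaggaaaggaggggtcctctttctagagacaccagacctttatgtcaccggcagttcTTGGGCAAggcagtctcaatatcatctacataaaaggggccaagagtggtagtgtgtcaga
In the first 3 windows the capitals are AGATAA or its reverse complement, with their first base at positions -86, -43 and -56, counted from the start site. In the Ngp window they are TTNNGCAA or its reverse complement. The search left out 1 chromosome and covered 32851 windows, called all windows below. Shares of all windows count each window, whereas a gene of the sets below counts once over its windows. Of 17 erythroid and heme synthesis genes at least 2-fold higher on number 1 in both treatments, 11 had a RefSeq window among those searched. Of these, 6 (54.5%) held AGATAA on either strand, against 11.2% of all windows. None of the 11 held TTNNGCAA, CCACACCC (a KLF1-type site, in 3.56% of all windows) or GAGGAAGT (an ETS-type site, in 3.2%). Of 13 neutrophil granule genes chosen the same way, 12 had a window, 4 (33.3%) held TTNNGCAA against 10.8% of all windows, 4 (33.3%) held GAGGAAGT, 2 (16.7%) held AGATAA and 1 (8.33%) held CCACACCC. The genes were chosen by their values and each motif was counted on its own. A match is a description of letters and not a binding site.

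Signals are log2 values after RMA, which normalises the arrays to each other, so a difference of 1 unit is 2-fold. Array medians were 4.84 to 4.87 on the 4 emigrant arrays. The highest probe set for bacterial transcripts that were not added, a measure of signal without target, read 4.32 and 4.92 on the dioxane and TCDD arrays numbered 1 and 4.45 and 4.34 on those numbered 2, and a value under that of its array is a bound. Correlations were taken over 12393 genes, each by its probe set of highest 6-array mean. Between the arrays numbered 1, r was 0.958, and between those numbered 2 it was 0.965. Across the numbers within a treatment it was 0.921 (dioxane) and 0.932 (TCDD). The arrays numbered 2 were also close to the thymocyte arrays of their treatment (0.966 with dioxane, 0.954 with TCDD), and the arrays numbered 1 were less so (0.914 and 0.926). As a reading of RNA quality, 3′ probe sets of actin exceeded 5′ ones by 3.06 and 3.77 on the arrays numbered 1 and 3.01 and 3.36 on those numbered 2. That of Gapdh was 4.75 and 5.60 against 4.69 and 4.75. Both were highest on TCDD array 1, and their part in the results was not tested.

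The arrays numbered 1 read higher in most neutrophil granule and red-cell genes, many of which lay near background on the arrays numbered 2, and lower in most T-lineage genes. In the limma fit with treatment as covariate, 0 of 12393 genes (0.0%) had an adjusted p under 0.05 in either direction, and the smallest adjusted p was 0.0534. That fit has 1 residual degree of freedom. At an unadjusted p under 0.05 there were 2118 genes (17.1%), 865 higher on number 1 (6.98%) and 1253 lower (10.1%), and at a limma adjusted p under 0.1 there were 75 (0.605%), 54 higher (0.436%) and 21 lower (0.169%). A limma fit of all 6 arrays, with thymocytes as a further level, called 163 genes (1.32%) between the numbers, 87 higher on number 1 (0.702%) and 76 lower (0.613%). The 6-array fit takes the TCDD effect to be the same in thymocytes and emigrants, which need not hold for every gene. Tiparp read 6.29 with dioxane and 9.35 with TCDD on the thymocyte arrays, and 6.66 and 6.66 on the emigrant arrays numbered 1. None of the differences below passed in the 4-array fit, so they are given as readings, with the adjusted p of both fits for the main genes.

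Within a treatment, 1 array stands against 1 and there is no test. The dioxane pair differed at least 2-fold in 1554 genes (12.5%), 584 higher on number 1 (4.71%) and 970 lower (7.83%). The TCDD pair did so in 1200 genes (9.68%), 472 higher (3.81%) and 728 lower (5.87%). Both pairs did so in the same direction in 526 genes (4.24%), of which 221 read higher on number 1 (1.78%) and 305 lower (2.46%). The 221 genes are 37.8% of those higher in the dioxane pair and 46.8% of those higher in the TCDD pair, and the 305 genes are 31.4% and 41.9% of those lower. The pairs share no array, and their differences correlated across genes at r = 0.56 (12393 genes, which are not independent, and which share the array normalisation). By any amount, 4556 genes were higher on number 1 in both pairs (36.8%) and 3745 lower (30.2%). Both arrays numbered 1 lay above both numbered 2 in 3787 genes (30.6%) and below both in 2976 (24.0%).

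The size of the shared differences was larger on the upper side. The median absolute difference was 1.87 for the 221 higher genes and 1.57 for the 305 lower genes, with genes under background taken at their measured values. Genes of the lineage and pathway lists made up 49 of the 221 and 21 of the 305, and 334 of all 12393 genes. The lists were chosen with earlier results of these data known. In 19 of the higher and 65 of the lower genes, other probe sets of the gene pointed the other way.

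**Figure D1:**
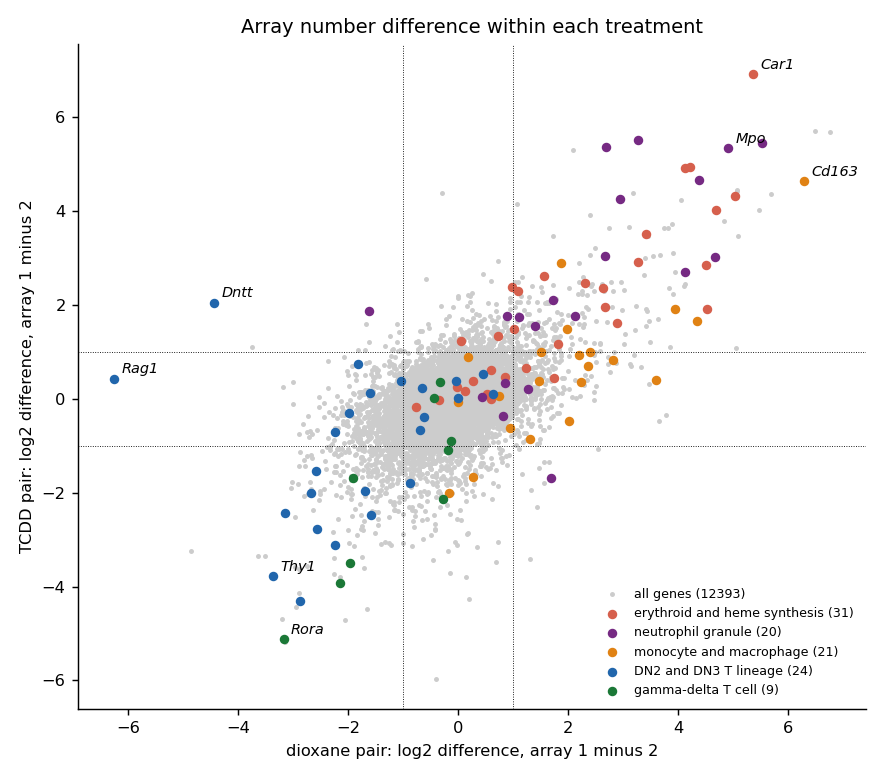
Each point is 1 of 12393 genes, plotted by its log2 difference (array 1 minus array 2) in the dioxane pair on the horizontal axis and in the TCDD pair on the vertical axis, with 5 gene groups in colour and dotted lines at 2-fold. Erythroid and neutrophil granule genes reach the upper right, most T-lineage and gamma-delta genes lie to the lower left, and Dntt and Rag1 lie apart at the left.

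Neutrophil granule genes read far higher on number 1. Of the 7 measured primary granule genes, 7 were higher, 6 of them at least 2-fold in both pairs (1.78% of all genes), with a median difference of 3.60 against 0.04 over all genes. The list's median level was 7.77 (dioxane) and 9.55 (TCDD) on number 1 and 5.10 and 4.72 on number 2. Primary granules form first, in promyelocytes, and hold serine proteases.

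Mpo, the myeloperoxidase of these granules, read 9.83 with dioxane and 10.06 with TCDD on number 1, and 4.92 and 4.72 on number 2. The groups did not overlap (30.6% of all genes on the higher side), and the arrays numbered 2 were as low as the thymocyte arrays (5.03 and 5.16). The difference was 5.12 ± 0.22 (log2, SE, n = 2 arrays per number), 34.8-fold, with a limma adjusted p of 0.0534 in the 4-array fit and 0.0131 in the fit of all 6. The granule proteases followed the same order. Prtn3 (proteinase 3) read 7.64 and 8.88 against 4.69 and 4.62, and Ctsg (cathepsin G) 7.93 and 10.15 against 4.67 and 4.65. Elane (neutrophil elastase) read 7.13 and 7.78 against 6.02 and 6.05. In each of these 3 genes the TCDD array was the higher of the arrays numbered 1. Ms4a3, a membrane protein of granulocyte and monocyte precursors, read 7.98 and 10.21 against 5.30 and 4.85. Gfi1, a repressor that granulocyte and lymphoid precursors both use, did not follow: it read 5.71 and 6.23 on number 1 and 7.33 and 4.36 on number 2, so that the number pointed opposite ways in the treatments.

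Secondary and tertiary granules form later, as the neutrophil matures. Of 13 measured genes, 12 read higher on number 1 and 7 did so at least 2-fold in both pairs (1.78% of all genes). The median difference was 1.47 (1.68 with dioxane, 1.75 with TCDD). Values with an array left out come from the fit of all 6 arrays, in which the median was 2.17 without dioxane array 1.
Chil3, a chitinase-like protein of neutrophil precursors and macrophages, read 11.66 and 11.50 on number 1 and 6.13 and 6.04 on number 2. The arrays of each number lay close together, and the difference of 5.49 ± 0.19 (log2, SE, n = 2) was 45.0-fold, with a limma adjusted p of 0.0534 (0.0131 with all 6 arrays).
Camp, the antimicrobial cathelicidin, read 9.64 and 10.93 against 5.26 and 6.27. Its groups were also apart, with a limma adjusted p of 0.0534 (0.023 with all 6 arrays).
Ngp read 12.45 and 12.34 against 7.79 and 9.33, and its arrays numbered 2 exceeded the thymocyte arrays (7.11 and 6.38). Its difference of 3.84 ± 0.46 had a limma adjusted p of 0.112 (0.059 with all 6 arrays). Lcn2 (lipocalin, which binds bacterial iron carriers) read 9.02 and 9.63 against 4.90 and 6.93. S100a8 and S100a9, the paired calcium-binding proteins of mature neutrophils, were less apart. S100a8 read 9.55 and 11.39 against 7.42 and 9.64, so TCDD array 2 lay above dioxane array 1. S100a9 read 8.37 and 11.39 against 7.50 and 9.62, with the same overlap.
Mmp8, a collagenase of neutrophil granules, read highest on TCDD array 2 (6.79 and 7.21 against 5.11 and 8.90). Cxcr2 and Csf3r, the receptors of mature neutrophils, differed little: Cxcr2 read 4.43 to 4.87 on the 4 arrays, near background, and Csf3r 6.01 to 6.85.

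Genes of other granulocytes were less apart. Of 12 mast cell, basophil and eosinophil genes, 11 read higher on number 1, with a median difference of 0.54. At least 2-fold in both pairs, 2 were higher (1.78% of all genes). Mcpt8, a basophil protease, read 5.85 and 6.88 against 4.72 and 4.69. Prg2, the major basic protein of eosinophils, read 5.43 and 5.70 against 3.86 and 3.66, the last pair under background. The mast cell genes Tpsab1, Cma1 and Fcer1a were low on the 4 arrays, at 3.11 to 4.91. Cpa3, a protease of mast cells and progenitors, was not low: it read 6.51 and 6.75 on number 1 and 8.14 and 5.54 on number 2. Gata2, a factor of mast cells and progenitors, read 6.05 to 6.75.

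Most red-cell genes were high on number 1 and near background on number 2. Of 25 measured erythroid genes, 23 read higher on number 1 and 14 at least 2-fold in both pairs (1.78% of all genes). The median difference was 2.08 (1.73 with dioxane, 1.95 with TCDD). The list's median level was 7.29 and 7.13 on number 1, 4.43 and 4.32 on number 2, and 4.74 and 4.70 on the thymocyte arrays. In the fit of all 6 arrays limma called 10 of the 25 as higher (0.702% of all genes). The 2 genes under background on all 4 emigrant arrays, Hba-x and Hbb-bh1, are embryonic globins.

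Alas2 read 8.86 with dioxane and 7.13 with TCDD on number 1, and 4.36 and 4.29 on number 2. Both values on number 2 were below the bacterial control ceiling of the array (4.45 and 4.34), and set against that ceiling Alas2 was at least 12.1-fold higher on number 1. The fitted difference was 3.67 ± 0.46 (log2, SE, n = 2), with a limma adjusted p of 0.115 and 0.0498 with all 6 arrays.
The membrane genes of red cells were apart in the same way. Rhag, the Rh-associated transporter, read 8.30 and 7.47 against 3.27 and 3.14, and its partner Rhd 9.69 and 9.06 against 5.00 and 5.03. Slc4a1, the band 3 anion exchanger, read 7.64 and 7.24 against 4.38 and 4.32. Ermap, a red-cell adhesion protein, read 8.71 and 9.03 against 4.58 and 4.12. Kel read 6.04 and 6.13 against 3.73 and 3.65. In these 5 genes the numbers did not overlap, as in 30.6% of all genes on the higher side. The values of Rhag, Slc4a1 and Kel on number 2 were under background.
Car1, the carbonic anhydrase of red cells, read 9.44 and 10.89 against 4.08 and 3.97. Both values on number 2 were under background, and against the background ceiling it was at least 54.6-fold higher on number 1. Its limma adjusted p was 0.0773, and 0.0163 with all 6 arrays. Car2, which macrophages and other cells also make, read 11.93 and 11.32 against 7.41 and 9.42.
The transcription factors of the lineage were also higher. Gata1 read 7.05 and 6.61 against 4.42 and 4.24, its partner Tal1 7.95 and 8.10 against 4.13 and 4.46, and Klf1 6.18 and 7.27 against 5.10 and 4.96. Hemgn, a nuclear protein of red-cell precursors, read 9.93 and 9.24 against 5.72 and 4.30.
Globin probe sets that carry 1 gene did not show the difference. Hba-a1 had 1 such probe set and read 4.08 to 4.53 on the 4 arrays. Hbb-y read 4.30 to 4.69, and both were near or under background. Adult beta-globin genes had no probe set of their own and are not analysed here. Probe sets carrying several genes were left out, so these values do not show whether adult globin RNA was present. Tfrc, the transferrin receptor of all dividing cells, read 10.84 and 10.52 against 10.79 and 9.29. Epor, the erythropoietin receptor, differed by 0.66 and Sptb, a spectrin chain, by 0.14.

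Of the 6 measured heme synthesis enzymes, 6 read higher on number 1, as most red-cell genes did. Their median difference was 1.36, and 3 were 2-fold apart in both pairs (1.78% of all genes). Fech, which inserts iron to finish heme, read 10.37 and 8.92 against 7.48 and 7.29. Cpox read 6.07 and 5.53 against 4.26 and 4.36, and Uros 8.21 and 8.56 against 7.20 and 7.08. Leaving out TCDD array 1 gave a median of 1.02.

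**Figure D2:**
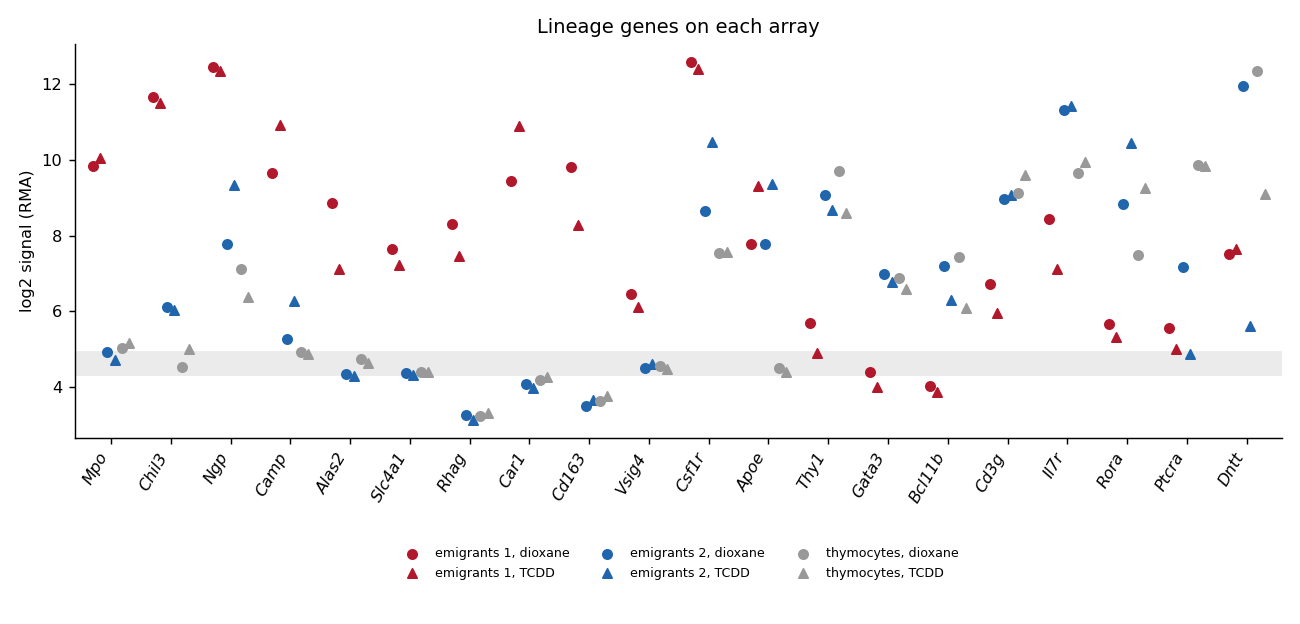
Points give the log2 RMA signal (vertical axis) of 20 lineage genes (horizontal axis) on each of the 6 arrays, by number (colour) and treatment (circle dioxane, triangle TCDD), and the grey band spans the highest bacterial control values of the arrays. From Mpo to Vsig4 the emigrant arrays numbered 1 lie above the other arrays, Apoe pairs by treatment, and from Thy1 to Rora the arrays numbered 1 lie lowest.

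Macrophage genes separated into those shared by both numbers and those high on number 1. Of 21 measured, 18 read higher on number 1 and 6 at least 2-fold in both pairs (1.78% of all genes). The median difference was 1.29. The median was 1.97 in the dioxane pair and 0.69 in the TCDD pair. Leaving out dioxane array 2 gave 0.59, and leaving out TCDD array 2 gave 1.93.
Cd163, the haemoglobin scavenger receptor of tissue macrophages, read 9.80 with dioxane and 8.29 with TCDD on number 1 and 3.51 and 3.66 on number 2, both under background. Against the background ceiling it was at least 25.2-fold higher on number 1, and the fitted difference of 5.46 ± 0.46 had a limma adjusted p of 0.0831 (0.0275 with all 6 arrays). Vsig4, a complement receptor of resident macrophages, read 6.47 and 6.11 against 4.50 and 4.62. Slc40a1 (ferroportin, the iron exporter) read 11.50 and 10.58 against 7.17 and 8.93. Csf1r, the growth factor receptor of the lineage, read 12.59 and 12.39 against 8.64 and 10.47.
Of these genes, Cd163, Vsig4 and Slc40a1 are genes of resident or iron-recycling macrophages, and Csf1r is shared by the lineage. Other members of the list were apart mainly with dioxane. In Mrc1, C1qa, Hmox1 and Marco the difference was 3.60, 2.23, 1.47 and 2.02 with dioxane. With TCDD it was 0.41, 0.36, 0.37 and -0.48. Spic, a transcription factor of iron-recycling macrophages, read 4.79 and 4.48 against 3.29 and 3.48, low throughout. Mertk, a receptor for dead cells, read 7.24 and 6.39 against 4.85 and 5.40.
Other macrophage genes did not follow the number. Apoe, a lipid carrier, read 7.79 and 9.30 on number 1 and 7.79 and 9.37 on number 2, so it paired by treatment. Lyz2 (lysozyme) read 9.93 and 11.93 against 9.75 and 11.04. Cd68, a lysosomal protein, was highest on TCDD array 2 (8.56 and 8.69 against 7.26 and 9.54). Fcgr1, an antibody receptor, and Ccr2, the chemokine receptor of blood monocytes, also read highest there, at 7.60 and 8.28. The thymocyte arrays were lower in both Apoe (4.51 and 4.40) and Lyz2 (5.96 and 5.49).

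Dendritic cell and MHC class II genes were less apart, with 9 of 12 higher on number 1, a median difference of 0.30 and none 2-fold apart in both pairs. H2-Aa, a class II chain, read 10.24 and 10.76 against 9.08 and 10.13. The dendritic cell genes Xcr1 and Zbtb46, and Ciita, a regulator of class II genes, lay near or under background on all 4 arrays. Itgax (6.84 and 7.39 against 6.33 and 6.82) and Cd83 (6.34 and 6.52 against 5.19 and 6.26), of the same list, were above it. Of the 12 genes, 2 were under background on all 4 arrays.
Megakaryocyte genes had a median difference of 0.24 with 6 of 9 higher. Pf4 and Ppbp, platelet chemokines, read highest on TCDD array 2 (11.35 and 8.78). Pf4 read 8.07 and 9.56 on number 1 and 6.52 on dioxane array 2.
Early progenitor genes had a median difference of 0.34 with 12 of 15 higher. At least 2-fold in both pairs, 4 were higher (1.78% of all genes): Tal1, Lmo2, Hhex and Bcl11a. Lmo2, which joins Tal1 and Gata1 in red-cell gene control, read 8.29 and 8.71 against 6.05 and 6.89, and Bcl11a, a factor of B and red cells, 6.08 and 6.53 against 3.80 and 3.93. Kit, the stem cell factor receptor, did not follow, at 7.07 and 7.25 against 7.09 and 8.56, and its probe sets differed in sign. Cebpa, a C/EBP factor, differed little, at 5.08 and 5.30 against 5.13 and 5.18. The same held for Spi1, a factor of myeloid cells, at 4.55 and 4.98 against 4.65 and 4.81. Myb, a factor of immature blood cells, read 10.37, 9.85 and 10.66 on 3 arrays and 5.47 on TCDD array 2.

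T-lineage genes ran the other way. Of 24 measured DN2 and DN3 genes (stages in which the T lineage is fixed and receptor genes are rearranged), 20 read lower on number 1 and 9 did so at least 2-fold in both pairs (2.46% of all genes), with a median difference of -1.27. The median was -1.77 in the dioxane pair and -0.53 in the TCDD pair. Leaving out dioxane array 1 gave -0.60 and dioxane array 2 -0.67. The list's median level was 5.70 and 5.58 on number 1, 7.31 and 6.76 on number 2, and 8.90 and 7.75 on the thymocyte arrays.

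Thy1, the surface marker of T cells, read 5.69 with dioxane and 4.90 with TCDD on number 1, and 9.07 and 8.68 on number 2, within the range of the thymocyte arrays (9.70 and 8.60). Its value on TCDD array 1 lies under the highest control of that array (4.92). The difference was -3.57 ± 0.22 (log2, SE, n = 2), with a limma adjusted p of 0.0537 and 0.0143 with all 6 arrays. Bcl11b and Gata3 fix the T lineage, and both were near background on number 1. Gata3 read 4.41 and 4.01 against 6.98 and 6.78, and Bcl11b 4.04 and 3.87 against 7.20 and 6.30. Il7r, the receptor of the cytokine that keeps these cells alive, read 8.44 and 7.12 against 11.31 and 11.43. The groups did not overlap in any of the 4 genes (24.0% of all genes on the lower side).
The receptor complex was present on all arrays at different levels. Cd3g read 6.72 and 5.97 against 8.97 and 9.08, and Cd3d 7.48 and 7.61 against 10.16 and 9.62. Cd3e was less apart, at 6.99 and 7.33 against 7.68 and 8.00. Lat, an adaptor of the receptor, read 5.58 and 5.53 against 8.17 and 7.07, and Il2ra (CD25, a marker of the DN2 and DN3 stages) 5.03 and 3.87 against 6.61 and 6.35. The arrays numbered 1 held CD3 chain signal above background, with Bcl11b under background on both.
Genes of receptor rearrangement did not follow the number in both treatments. Dntt, which adds bases at the joints, read 7.52 and 7.65 on number 1 and 11.96 and 5.61 on number 2, a difference of -4.45 with dioxane and 2.04 with TCDD. Rag1, which cuts the DNA, read 9.99 on dioxane array 2 and 3.72, 4.03 and 3.61 on the other emigrant arrays, all under background. Ptcra, the partner chain of the first receptor, read 5.56 and 5.00 against 7.16 and 4.87. Dioxane array 2 held the rearrangement genes at levels near the dioxane thymocyte array for Dntt (12.36) and Rag1 (9.70), and TCDD array 2 did not. Without dioxane array 1 the fitted Dntt difference was 1.27, and without dioxane array 2 it was 1.20 for Dntt and 0.26 for Ptcra. Notch1 (6.48 and 6.75 against 8.46 and 7.06) was lower on number 1, with probe sets of differing sign, and the Notch targets Hes1 and Dtx1 differed by 0.49 and 0.01.

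Genes of later thymocytes had a median difference of -0.40, with 9 of 13 lower. Cd4 read 4.93 to 5.19 and Cd8a 4.62 to 5.50 on the 4 emigrant arrays, near background on all. Ccr9, a homing receptor for the thymus, read 6.86 and 7.88 against 9.28 and 9.20, with probe sets of differing sign. Cd28, a costimulatory receptor, read 7.56 and 6.22 against 9.07 and 7.60, so that its groups met without overlapping.

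Gamma-delta T-cell genes were lower on number 1 in 8 of 9 measured, with a median difference of -1.21 (-0.43 with dioxane, -1.68 with TCDD). Of the 9, 4 were at least 2-fold lower in both pairs (2.46% of all genes). The median was -0.56 without TCDD array 1, -0.71 without TCDD array 2 and -2.06 without dioxane array 1. Rora, a factor of cells that make IL-17, read 5.67 and 5.33 against 8.84 and 10.45, with probe sets of differing sign. Blk, a kinase of B cells and these T cells, read 7.30 and 6.53 against 9.44 and 10.44. Il1r1, the receptor for interleukin 1, read 4.84 and 4.86 against 6.82 and 8.37. In all 3 genes TCDD array 2 was the highest, and the numbers did not overlap (24.0% of all genes on the lower side). Zbtb16, the factor of innate-like T cells, read 3.57 and 3.85 against 5.48 and 5.53.
The NK and innate lymphoid genes were mixed: 12 of 20 lower, with a median difference of -0.13. At least 2-fold in both pairs, 3 were lower (2.46% of all genes) and 1 higher (1.78%). Gzmb (granzyme B) read 5.71 and 5.75 against 8.47 and 9.32, and Klrc1, an inhibitory receptor, 4.82 and 3.77 against 6.83 and 6.56. Fcer1g, a signalling chain that NK cells share with myeloid cells, was the higher one (8.98 and 8.93 against 6.92 and 7.78). Gzma read 8.68, 9.37 and 9.13 on 3 arrays and 11.87 on dioxane array 2.
B-lineage genes had a median difference of 0.33, with 11 of 14 higher. Cd79a, Pax5 and Ebf1 read 3.02 to 4.44, near or under background on the 4 arrays. Cd22 (6.83 and 6.28 against 6.25 and 6.15) and Ms4a1 (5.53 and 5.31 against 4.79 and 4.59) were above it on all 4. Of the 14 genes, 4 were under background on all 4 arrays. Ighm, the IgM heavy chain, read 10.04 and 9.75 against 9.64 and 8.98, with probe sets of differing sign.

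**Figure D3:**
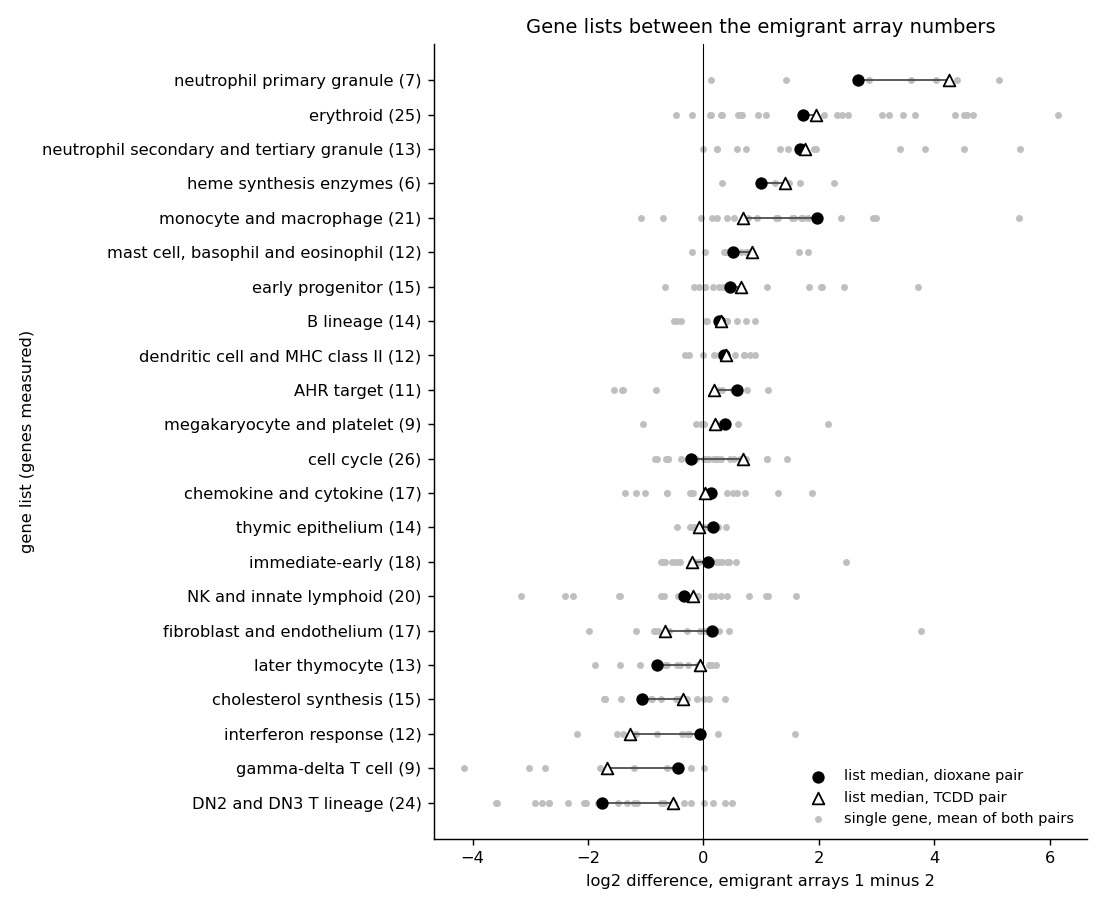
For 22 gene lists (number of measured genes in brackets), the horizontal axis gives the log2 difference between emigrant arrays numbered 1 and 2, as the list median in the dioxane pair (circle) and in the TCDD pair (triangle), with single genes as grey points. Neutrophil, erythroid, heme and macrophage lists lie at the top, and the gamma-delta and DN2 and DN3 lists lie at the bottom left with medians of -1.21 and -1.27 over both pairs.

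Among single genes, the 12 with the smallest p in each direction that were at least 2-fold apart in both pairs were taken from 216 higher and 300 lower candidates above background, with 5 clone or predicted names left out on the lower side. The 12 higher genes all had a limma adjusted p of 0.0534, and 11 of them passed in the fit of all 6 arrays. Besides Chil3, Mpo, Camp and Tal1, they include genes of macrophages and other myeloid cells. Adgre4, an adhesion receptor of macrophages, read 10.67 and 9.93 against 3.91 and 4.26 (6.22 ± 0.33). Both values on number 2 were under background, and against the background ceiling the gene was at least 60.1-fold higher on number 1. Cd5l, a secreted protein of tissue macrophages, read 10.41 and 9.65 against 5.35 and 5.22. Adamdec1, a metalloprotease of macrophages and dendritic cells, read 9.42 and 9.31 against 4.34 and 4.86. Jchain, which joins IgM and IgA into polymers, read 10.39 and 9.78 against 3.90 and 4.08, and read 8.40 on the TCDD thymocyte array. It was the 1 gene of the 12 that did not pass with all 6 arrays (limma adjusted p = 0.0841). Slpi, an inhibitor of neutrophil elastase, read 9.96 and 10.30 against 6.07 and 6.57. Trem3, an activating receptor of myeloid cells, read 8.13 and 8.76 against 4.68 and 5.29. Tgm2, a transglutaminase of macrophages, read 9.01 and 10.08 against 5.27 and 6.43, and Ctse, an aspartic protease, 10.05 and 9.60 against 5.99 and 5.38, with probe sets of differing sign.

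The 12 lower genes had limma adjusted p of 0.0534 to 0.0893, and 9 of them passed in the fit of all 6 arrays. Several belong to T cells and other lymphocytes. Trgv4, a variable segment of the T-cell receptor gamma chain, read 6.75 and 7.70 on number 1 and 10.27 and 11.05 on number 2. Probes for such segments can catch related segments. Itgae (CD103, the integrin of T cells in epithelia) read 5.02 and 5.46 against 7.66 and 7.82, and Rgs1, a brake on chemokine receptor signals, 5.25 and 6.33 against 8.22 and 9.90. Traf3ip2, the adaptor of the IL-17 receptor, read 4.93 and 5.27 against 7.07 and 7.37. Gbp6, an interferon-induced GTPase, read 6.61 and 5.97 against 9.50 and 9.58. In each of these genes the numbers did not overlap (24.0% of all genes on the lower side). Ddb2, a DNA damage sensor, read 3.87 and 4.35, under background, against 6.85 and 6.86. Fgl2, a fibrinogen-like protein of T cells and macrophages, read 6.22 and 7.02 against 8.40 and 9.58. Ctsl, a lysosomal protease, read 7.95 and 10.04 against 10.49 and 12.20. Zfp386, a zinc-finger protein, read 4.52 and 5.10 against 6.75 and 7.15. Thy1, Gata3 and Gzmb complete the 12.

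**Figure D4:**
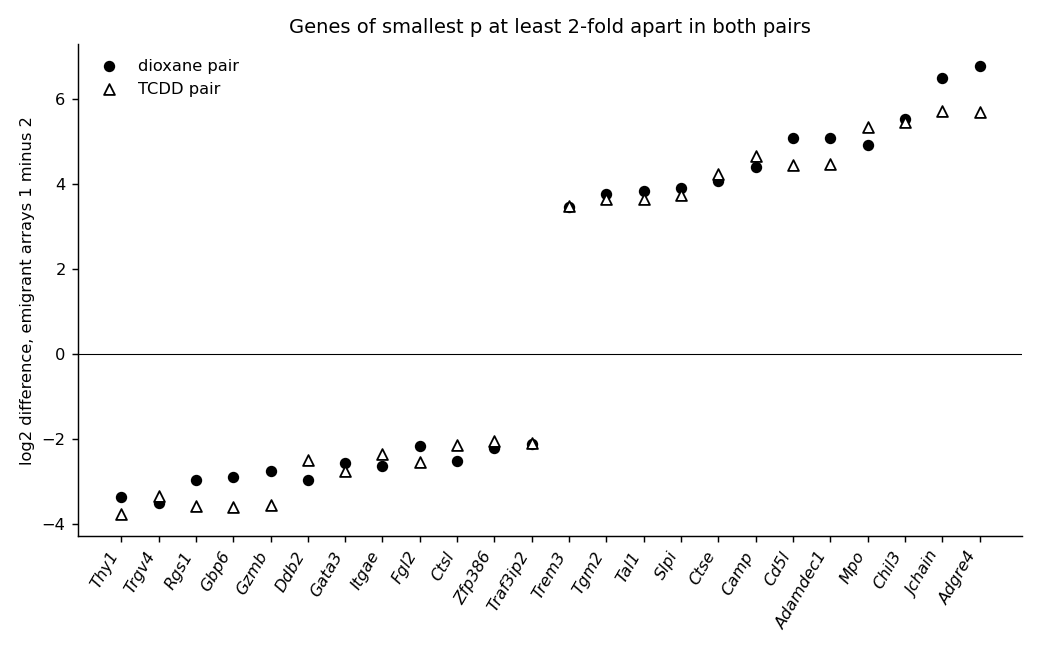
The vertical axis gives the log2 difference between the emigrant arrays numbered 1 and 2 in the dioxane pair (circle) and in the TCDD pair (triangle) for the 24 genes of smallest p, ordered along the horizontal axis by their mean difference. The genes were chosen for differences in both pairs, and Adgre4, Jchain and Chil3 lie at the upper end and Thy1 and Trgv4 at the lower end.

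Further genes among the 526 were singled out after their values were seen. Fcna, a lectin of macrophages, read 10.38 and 9.48 against 5.54 and 5.70, and Vcam1, an adhesion molecule of macrophages and stroma, 11.40 and 10.46 against 6.30 and 6.99. Hpgd, which breaks down prostaglandins, read 9.80 and 8.71 against 4.12 and 4.35. The numbers did not overlap in these genes (30.6% of all genes on the higher side). On the lower side, Cxcr6, a chemokine receptor of innate-like T cells, read 5.03 and 4.68 against 8.18 and 9.87, with its value on TCDD array 1 under background. Tnfsf11 (RANKL, a T-cell signal to thymic epithelium) read 4.79 and 4.07 against 7.68 and 8.22, and Il18r1, the receptor for interleukin 18, 6.82 and 5.43 against 8.48 and 9.90.
Mmp12 and Gpnmb, genes of activated macrophages, were lower on number 1, against the direction of Cd163 and Vsig4. Mmp12 read 4.40 and 5.57 against 7.61 and 10.27, and Gpnmb 5.40 and 6.66 against 6.63 and 9.78.

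Stromal genes were given as a check on other cells of the lobe. Thymic epithelial genes had a median difference of -0.01. Of the 14 measured, 4 were under background on all 4 arrays, among them Foxn1, Krt14 and Krt18. Epcam was above it on all 4 (5.08 and 5.44 against 5.69 and 4.89). Krt5 (5.31 and 4.79 against 5.13 and 5.08) and Krt8 (5.38 and 4.46 against 5.06 and 5.25) were under it on TCDD array 1 alone. Krt8 had probe sets of differing sign. For fibroblast and endothelial genes the median difference was -0.29 (0.15 with dioxane, -0.67 with TCDD), and 3 of the 4 measured collagens read highest of the emigrant arrays on TCDD array 2. Col3a1 read 4.33 and 6.54 on number 1 and 5.18 and 9.67 on number 2, while Col5a1 read highest on dioxane array 1 (7.27 and 6.32 against 5.73 and 6.99), with probe sets of differing sign. Fn1, which macrophages also make, was the exception at 9.77 and 12.53 against 6.60 and 8.15 (3.78 ± 0.36).

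Process lists showed smaller differences. The list median changed sign between the treatments for cell cycle genes and, near 0, for immediate-early genes (0.08 with dioxane, -0.19 with TCDD). Cell cycle genes had a median of -0.22 in the dioxane pair and 0.68 in the TCDD pair, and Mki67, the proliferation marker, read 10.04 and 9.66 against 10.15 and 9.34. Cholesterol synthesis genes were lower on number 1 in 12 of 15, with a median of -0.48 (-1.07 with dioxane, -0.36 with TCDD). Hmgcs1, an early enzyme of the pathway, read 8.45 and 8.77 against 11.20 and 9.48. Dioxane array 2 was the highest in Hmgcs1, as it was in Rag1 and Dntt. Interferon-response genes were lower in 10 of 12, with a median of -0.58 (-0.06 with dioxane, -1.27 with TCDD). Gbp2 (6.08 and 7.03 against 8.52 and 8.97) and Irf1 (7.74 and 7.97 against 9.17 and 9.33) were the members at least 2-fold lower in both pairs. Of 18 immediate-early genes, 10 read lower, and the list median was -0.12, and Klf4, which monocytes also use, was the exception (7.42 and 8.59 against 4.76 and 6.30). Chemokine and cytokine genes had a median of 0.09, and Il1b (6.63 and 8.38 against 5.29 and 5.98) and Cxcl2 (6.69 and 10.60 against 5.44 and 9.27) were the members at least 2-fold higher in both pairs.

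Among AHR targets, which TCDD is known to induce, 4 of the 11 measured read higher on TCDD array 2 than on TCDD array 1 and 7 lower. Cyp1a1, the best-known target, read 3.96 and 3.84 on the dioxane arrays numbered 1 and 2 and 4.22 and 5.98 on the TCDD arrays, with TCDD array 2 the 1 emigrant array above background. Cyp1b1, a monooxygenase, read 4.66 and 4.72 with dioxane and 5.90 and 8.95 with TCDD, with probe sets of differing sign. Tiparp, a target that limits AHR signalling, read 6.66 and 6.33 with dioxane and 6.66 and 9.82 with TCDD. Ahrr, the repressor of the receptor, read 4.45 and 3.76 with dioxane and 4.04 and 7.50 with TCDD. Of the 4 emigrant arrays, TCDD array 2 was the highest in these 4 genes, and whether these differences between the TCDD arrays exceed array error was not tested. Nqo1, a quinone reductase, ran the other way, at 6.07 and 4.42 with dioxane and 5.31 and 4.73 with TCDD. Scin, an actin-severing protein, differed with the treatment on both numbers, at 5.21 and 7.06 on number 1 and 4.55 and 6.57 on number 2. Over the list of 11 the median difference was 0.26, with 7 higher on number 1.

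Of the sex-linked genes, Eif2s3y was low on TCDD array 1 and Xist was lowest on dioxane array 1. Eif2s3y, a gene of the Y chromosome, read 7.53 on dioxane array 1, 7.34 on dioxane array 2 and 7.62 on TCDD array 2, and 3.35 on TCDD array 1, under background there. It read 5.20 and 6.11 on the thymocyte arrays. Kdm5d and Uty, of the same chromosome, lay near background on all arrays. Xist, the RNA of the inactive X chromosome, read 8.92 on dioxane array 1 and 10.51 to 10.67 on the other emigrant arrays, with probe sets of differing sign. The pools can hold lobes of both sexes, and the part of sex in the differences between numbers was not tested.

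In 28 genes (0.226%) the number pointed opposite ways in the treatments by at least 2-fold each: 11 higher on number 1 with dioxane and lower with TCDD (0.0888%), and 17 the reverse (0.137%). The former include Mmp8, Pf4 and Ppbp, in which TCDD array 2 was the highest of the 4 arrays. The latter include Dntt, Gfi1, Cpa3 and Endou, in which dioxane array 2 was the highest. Endou, an RNA-cutting enzyme, read 4.86 and 5.36 against 8.61 and 4.25.

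**Figure D5:**
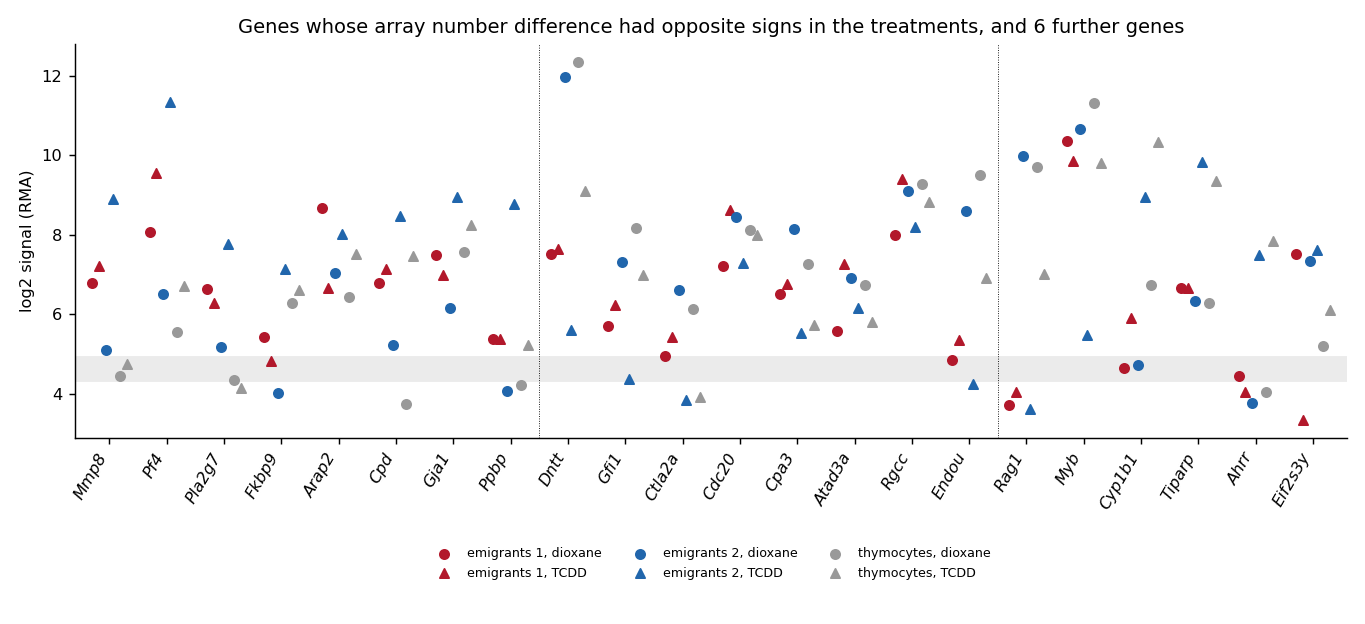
Points give the log2 RMA signal (vertical axis) on each of the 6 arrays of 16 genes whose number difference had opposite signs in the treatments, and of 6 genes of AHR, receptor rearrangement, progenitor and sex-linked lists (horizontal axis, right of the last dotted line), and the grey band spans the highest bacterial control values. TCDD array 2 (blue triangle) lies highest among the emigrants in Mmp8, Pf4 and Ppbp and lowest in Dntt (5.61) and Myb (5.47), and TCDD array 1 (red triangle) lies lowest in Eif2s3y (3.35).

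Against the thymocyte array of the same treatment, differences are given as the median of per-gene differences of a list, with 1 array on each side and no test. The erythroid list was 1.68 (dioxane) and 1.68 (TCDD) above the thymocyte array on number 1, with 20 of 25 genes above in each treatment. On number 2 it was -0.11 and -0.23. The primary granule list was 2.84 and 4.32 above on number 1, and -0.11 and -0.09 on number 2. In both lists number 2 lay close to the thymocyte arrays. The secondary and tertiary granule list was above by 2.59 and 3.89 on number 1 and by 0.67 and 1.80 on number 2. The macrophage list was above by 2.73 and 3.36 on number 1 and by 1.01 and 2.58 on number 2, and 18 (dioxane) and 20 (TCDD) of its 21 genes lay above on number 2. The DN2 and DN3 list was -1.99 and -1.48 on number 1, with 21 and 22 of 24 genes below. On number 2 it was -0.24 and -0.50, with 15 of 24 genes below and 9 above in each treatment. Il7r was among those above, at 11.31 and 11.43 on number 2 against 9.65 and 9.96 on the thymocyte arrays.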

How the data were processed

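The deposited log2 values were used as given: per the submitters' processing notes they are RMA values, and affy from Bioconductor is named in the design text (its version is not given in the sources used here). The RMA method corrects background, normalises the arrays to each other and gives no detection calls, so differences of dim genes are understated. Of 22690 probe sets, 64 controls were left out, 691 carried several genes and 1555 none. The remaining 20380 gave 12393 genes, each represented by the probe set of highest 6-array mean. Probe sets of a gene that disagreed in the sign of the number difference, averaged over both treatments, are named as such. Number and treatment were the terms of a limma fit (version 3.58.1, R 4.3.3, lmFit and eBayes) to the 4 emigrant arrays, with Benjamini-Hochberg adjustment over all genes and calls at an adjusted p under 0.05. The fit had 1 residual and 2.96 prior degrees of freedom, and the code was checked on simulated data.

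Differences within a treatment compare 1 array with 1. The members and the 23 gene lists, of which 334 of 386 genes were measured, were chosen with earlier results of these data known. List members were named freely. Beyond them, the rule was the 12 largest called genes in each direction that were 2-fold apart in both pairs and above the highest bacterial control, filled up by smallest p, without clone or predicted names. For opposite signs it was 8 genes per pattern. Promoter windows are RefSeq's for GRCm38.p6, with 1 chromosome left out. Alternatives were other normalisations, filters, probe set choices, priors, covariates and thresholds, all 6 arrays, and each emigrant array left out in that fit. The number of arrays limits the precision.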

Additional observations from a re-analysis of the deposited data

Results flagged for a closer look

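In 28 genes the difference between the numbers was at least 2-fold in each treatment but of opposite sign, and 16 of these, 8 for each pattern, are given here. The difference between the treatments was not tested, since each treatment has 1 array per number. The values below are the dioxane difference minus the TCDD difference, in log2 units. Mmp8 (3.37), Pf4 (3.35), Ppbp (4.72), Pla2g7 (2.95), Fkbp9 (3.74), Arap2 (3.00), Cpd (2.91) and Gja1 (3.28) were higher on number 1 with dioxane and lower with TCDD. Dntt (-6.49), Endou (-4.86), Gfi1 (-3.49), Ctla2a (-3.27), Cpa3 (-2.84), Cdc20 (-2.58), Atad3a (-2.45) and Rgcc (-2.32) were lower with dioxane and higher with TCDD. In Fkbp9, Cpd, Gja1, Cdc20, Atad3a and Rgcc, probe sets of the gene differed in the sign of the number difference averaged over both treatments. Whether other probe sets of these genes had opposite signs in the treatments was not checked.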

How the results depend on the processing

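The count of genes called between the numbers was 0 as reported, with median centring and at an adjusted p under 0.01. It was 105 with cyclic loess (73 higher on number 1, 32 lower), 108 with quantile normalisation of the 4 arrays (73 and 35), 21 of the 6197 genes of at least median level (18 and 3), 27 of 20380 probe sets tested on their own (21 and 6), 43 with the probe set of largest variance (34 and 9), 45 with an intensity trend (36 and 9), 8 without the treatment term, 163 with all 6 arrays (87 and 76) and 75 at an adjusted p under 0.1. With 1 emigrant array left out of the 6-array fit it ranged from 36 (without dioxane array 2) to 213 (without TCDD array 1). It was 117 without dioxane array 1 and 42 without TCDD array 2. The lone array of a group is then assumed to vary like the others. The cause of these differences was not tested. Counts of genes apart in both pairs were 1408 at 1.5-fold and 102 at 4-fold, against 526 at 2-fold. Of the 526 genes, 2 changed direction with the mean of a gene's probe sets. Because the genes were chosen for sharing a direction in both pairs, directions kept under other settings show nothing about stability.

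The secondary and tertiary granule median was 1.92 in genes of at least median level, and 1.42 to 2.17 with an array left out. The erythroid median was 3.09 in genes of at least median level, 2.31 among genes above the highest bacterial control (added after seeing the data), and 1.76 to 2.14 with an array left out. Both filters used the emigrant values, so a gene near background on number 2 could pass through its values on number 1. The larger medians of the filtered granule and erythroid genes therefore show nothing about stability. The heme median was 1.02 to 1.35 with an array left out. Dntt turned positive without dioxane array 1 (1.27) and without dioxane array 2 (1.20), with a range of -3.67 to 1.27 over the arrays left out. Ptcra turned positive without dioxane array 2 (0.26), with a range of -1.74 to 0.26. The medians of the primary granule, macrophage, DN2 and DN3 and gamma-delta lists kept their direction in every alternative run. These runs reuse the same arrays, and the lists were chosen with earlier results of these data known. A kept direction therefore shows nothing about stability here either. No paired analysis was possible because the replicate number is itself the comparison and cannot also be a block. Treatment was the covariate, and the fit without it is given above.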
